A study of Antirrhinum majus with 21 samples.

Results

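The magenta corolla of snapdragon (*Antirrhinum majus*) carrying the ROSEA (ROS) and ELUTA (EL) alleles of stock line JI7 was compared with the white corolla carrying those of stock line rosea-dorsea. The 6 libraries were chosen by genotype label, 3 of each, out of 21 libraries of 7 genotypes. The magenta genotype, written ROSji7_elji7, has a dominant ROS and a recessive el allele, both of JI7. The white genotype, written rosdor_eldor, has recessive ros and el alleles, both of rosea-dorsea. The other genotypes used below are named in the same way, with the ROS allele first, capitals for a dominant allele and the source after it. The source *pse* is *A. m. pseudomajus* and *str* is *A. m. striatum*. By label ROSpse_elpse is magenta, ROSji7_ELstr and ROSpse_ELstr are eluta, rosstr_ELstr is white and rosrec_elpse is pale. The ros allele of rosrec_elpse is a recombinant whose upstream side is of *striatum* and whose downstream side is of *pseudomajus*. Labels give 1 allele per locus and no zygosity, and they do not describe the rest of each plant's genome. Both groups carry a recessive el allele, so they differ by label in the ROS allele and in the line that each allele came from. Every library is the corolla RNA of 1 plant grown on outside benches, from a bud 5 to 10 mm long at stage 12 to 13, read as 50 bp single-end sequences. The 3 magenta plants are all of plant family A183, which holds no other genotype. The white plants are of families A181, A174 and A182, 1 plant each. Family and genotype cannot be told apart in this comparison. The families of the white plants also hold other genotypes, since white replicate 1 is of the family of all ROSpse_elpse plants, replicate 2 of that of all ROSpse_ELstr plants and replicate 3 of that of all rosstr_ELstr plants.

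The amount and the pattern of magenta anthocyanin in the snapdragon flower depend on ROS and EL, which are linked. ROS encodes MYB transcription factors which, with bHLH and WD40 partners, switch on the enzyme genes of the anthocyanin pathway, and EL restricts where in the corolla the pigment is made. The series concerns selection and gene flow at these loci, and the comparison asks which corolla transcripts differ between a pigmented and an unpigmented combination of cultivated alleles. The files identify genes by ID alone, so neither the pathway enzymes nor the markers of petal cells could be looked up, and the label of the tissue was not checked against markers.

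The magenta libraries held 19696109 to 29429426 estimated reads and the white ones 8926585 to 34576676, the lowest being white replicate 1. Spearman's rho across genes was 0.910 to 0.966 over the 6 pairs of the same genotype and 0.878 to 0.974 over the 9 pairs of different genotype. The genotypes overlapped on each of the 5 principal components of the 6 libraries. White replicate 1 stood apart on the first, at 150 against -99.7 to 24.1 in the others, and this component held 40.0% of the variance. Magenta replicate 1 was at its other end, at -99.7, and was the highest on the second, at 80.5. Magenta replicate 3 was the lowest on the third, at -105. Between plants of the same genotype the chi-square per degree of freedom was 76.7 to 163, far above sampling noise. The 163 and the rho of 0.910 were both of magenta replicates 1 and 3. Each library was taken as a sample of its own.

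Few transcripts were called between the magenta and the white corolla. The count does not measure how many differ, since edgeR recovered 33% of genes changed 2-fold in simulated counts. The changed genes there had a mean above 5 CPM, so the recovery of lower genes was not tested. Of 24674 genes tested, 55 were called (0.223%), of which 16 (0.0648%) were higher and 39 (0.158%) lower in magenta at an adjusted p under 0.05 in the quasi-likelihood test of edgeR. DESeq2 called 306 of the 24448 genes to which it gave an adjusted p (1.25%), all 55 among them. The falls were deeper than the rises. The median log2 fold change, magenta minus white, was 2.19 for the higher genes and -4.56 for the lower genes, beside 0.03 for all genes tested, and 18 of the 39 lower genes but 3 of the 16 higher ones moved by more than 5 log2 units. The levels of the 3 magenta and the 3 white libraries did not overlap for any of the 55 genes. Those genes were called on these same libraries, so this describes the choice and is no further support. Over all tested genes 1257 (5.09%) were higher without overlap and 1346 (5.46%) lower. In bulk tissue, fewer cells of a type and less RNA per cell cannot be told apart.

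**Figure D1:**
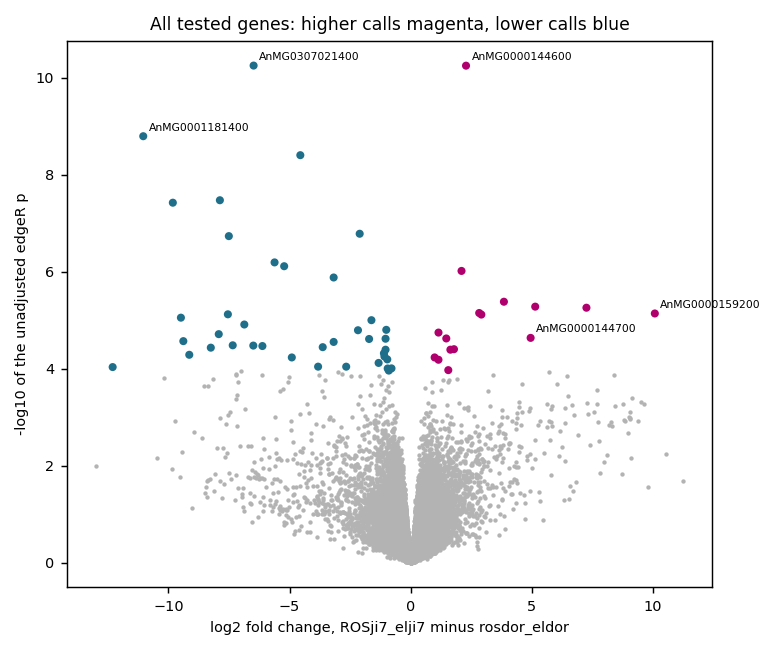
Each point is 1 of the 24674 tested genes, with the log2 fold change of magenta ROSji7_elji7 minus white rosdor_eldor on the x axis and the -log10 of the unadjusted edgeR p on the y axis. The 16 genes called higher are in magenta and the 39 called lower in blue, and more of the lower genes lie beyond 5 log2 units.

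The number of calls depended on single libraries. The 55 became 31, 155 and 81 without magenta replicate 1, 2 and 3, and 52, 63 and 18 without white replicate 1, 2 and 3. Without magenta replicate 1, 2 or 3 more genes were higher than lower (18 against 13, 97 against 58 and 58 against 23). Among libraries of the middle number series alone, which leaves out white replicate 1, 5 genes were higher and 39 lower.

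Many of the lower genes were near 0 in magenta. Of the 39, 22 had a mean under 1 CPM (counts scaled to a common library total) in magenta ROSji7_elji7 and also under 1 CPM in ROSji7_ELstr, a genotype that joins the same JI7 ROS allele to the dominant EL allele of *striatum* and whose corolla is labelled eluta. The median over the 22 of their mean levels was 0.0683 CPM in ROSji7_elji7 and 0.107 CPM in ROSji7_ELstr. It was 11.2 CPM in white rosdor_eldor, 7.88 in ROSpse_elpse, 10.5 in ROSpse_ELstr, 10.3 in rosstr_ELstr and 10.4 in rosrec_elpse. The grouping was made after the values were seen and used the level in both JI7 genotypes, so the low levels there describe the choice and are no result. The folds of these 22 were 9.07 or more. Of the other lower genes, 16 had folds of 1.73 to 9.06, which meet that range without a gap. AnMG0109000400 had a fold of 37.4 and lay within it. In 18 of the 22 the mean was at least 1 CPM in each of the 5 genotypes without a JI7 allele. White is among the 5 and was high by the choice of the genes, so this count partly describes the choice. The rosrec_elpse means also hide low values in its replicate 2, given below.

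AnMG0307021400 (scaffold1274, 362802 to 369006, plus strand) had the smallest adjusted p among the falls. Its level was 1.04, 0.553 and 0.698 CPM in the 3 magenta libraries and 95.5, 31.4 and 78.1 CPM in the 3 white ones. Every white library lay far above every magenta one, and the difference was -6.49 ± 0.44 on the log2 scale (SE, edgeR adjusted p 6.92e-07). Its mean was 0.624 CPM in ROSji7_ELstr and 45.4 to 105 CPM in the 4 further genotypes. The call held in all 12 alternatives, with an adjusted p of at most 0.0225.

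The composition of transcripts of AnMG0307021400 was also unlike between the groups. Transcript T05 made up 74.6% of the summed mean TPM of this gene, a level scaled by transcript length and library, in magenta, 93.8% in ROSji7_ELstr and 4.60% in white. Its own level was 0.836 ± 0.169 TPM in magenta and 3.23 ± 1.12 TPM in white (SD, n = 3). T01 to T04 were at 31.2, 15.1, 13.6 and 6.94 TPM in white and at most 0.181 TPM in magenta. So the few reads left in magenta lay mostly on 1 transcript, and the shares there rest on few reads.

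AnMG0001181400 (scaffold1539, 41707 to 44231, minus strand) had no read in any magenta library and stood at 10.9, 6.97 and 9.92 CPM in white. The fall was at least 228-fold, taken against a floor of 3 counts over the 3 magenta libraries. It was at 0.00930 CPM in ROSji7_ELstr and between 6.51 and 13.5 CPM in the 4 further genotypes. Its call held in all 12 alternatives, with an adjusted p of at most 0.0398 (1.32e-05 as reported). It overlaps AnMG0003242600 on the same strand, and how reads were split between them is not known.

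AnMG0001597300 (scaffold1515, 253717 to 256140, minus strand) was at 0.136, 0.221 and 0.279 CPM in magenta and 5.31, 4.17 and 5.99 CPM in white. This is a log2 difference of -4.56 ± 0.41 (SE, edgeR adjusted p 2.43e-05), and it too was called in all 12 alternatives. In white 61.1% of its TPM lay on T01 and 34.6% on T02. T02 was at 0 TPM in each ROSji7_elji7 and each ROSji7_ELstr library, which rests on few reads. In ROSji7_elji7 there were 17.0 estimated reads, all on T01, and in ROSji7_ELstr 12.9 on T01 and 23.5 on T03.

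AnMG0003632610 and AnMG0002194110 overlap on the plus strand of scaffold272, at 183206 to 186721 and 185649 to 189748. AnMG0003632610 had no read in magenta or in ROSji7_ELstr and was at 26.3, 13.3 and 27.0 CPM in white, at least 548-fold lower in magenta. Its adjusted p of 0.0449 rose above the threshold without any 1 of the 6 libraries, up to 0.150. AnMG0002194110 was at 0.0909, 0.111 and 0.140 CPM in magenta and 21.5, 14.7 and 30.8 CPM in white, a log2 difference of -7.55 (edgeR adjusted p 0.00995, and 0.0823 without magenta replicate 1). It is the called gene that was placed on more than 1 sequence. In white all its TPM lay on T01, and in magenta 82.5% lay on T02, all of that in 1 library. The magenta share rests on 3.66 estimated reads of T02 beside 4.90 of T01, too few to show a change of transcript.

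On scaffold217, AnMG0107996200 (622748 to 626384, plus strand) was at 0.409, 0.368 and 0.419 CPM in magenta and 45.5, 57.0 and 93.9 CPM in white. AnMG0107995900, on the minus strand at 625910 to 627062, was at 0.545, 0.442 and 0.489 against 27.1, 22.8 and 53.3 CPM. The log2 differences were -7.35 and -6.12, with an edgeR adjusted p of 0.0241 for each. These genes overlap on opposite strands and the use of strand in counting is not given, so their reads may be shared. Both calls ended without any 1 magenta library or without white replicate 3, at an adjusted p up to 0.128.

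AnMG0005481210 (scaffold28, 112112 to 117868, plus strand) was at 0.0454, 0.111 and 0.0349 CPM in magenta and 76.3, 27.0 and 44.8 CPM in white. The difference was -9.49 ± 1.51 on the log2 scale (SE, edgeR adjusted p 0.0109, and 0.0854 without magenta replicate 1). AnMG0808967400 (scaffold73, 435425 to 437061, minus strand) was at 0.0933 ± 0.0373 CPM in magenta and 53.4 ± 50.1 CPM in white (SD, n = 3), where the libraries stood at 23.3, 25.6 and 111 CPM. Its adjusted p of 0.0304 rose above 0.05 without any magenta library or without white replicate 3, to at most 0.151. AnMG0005049500 (scaffold218, 244211 to 247924, minus strand) had reads in 1 magenta library alone, at 0.0368 CPM, and 12.1, 9.73 and 12.7 CPM in white. Its ratio of white to magenta was 885, with a 95% counting interval from 158, and the call (adjusted p 0.0215) ended under the same 4 omissions, at up to 0.126.

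Of these 22 genes 7 kept the call whichever of the 6 libraries was left out. The group was spread over 12 sequences, and the fold of each was -3.18 or less on the log2 scale. The shallowest was AnMG0003564910 (scaffold413), at 0.235 CPM in magenta, 2.15 in white and 0.990 in ROSji7_ELstr, and in that last genotype it lay within the 0.714 to 1.32 CPM of the 4 further ones.

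One lower gene was near off in ROSji7_elji7 and not in ROSji7_ELstr. AnMG0109000400 (scaffold217, 1726606 to 1727829, plus strand) was at 0.182, 0.368 and 0.174 CPM in magenta and 6.83, 7.28 and 13.5 CPM in white, a log2 difference of -5.22 ± 0.69 (SE, edgeR adjusted p 0.00190). It was at 6.91 CPM in ROSji7_ELstr and 5.97 to 11.6 CPM in the 4 further genotypes. The call held in all 12 alternatives.

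The remaining 16 lower genes were still expressed in magenta, at means of 1.23 to 44.4 CPM against 7.15 to 91.1 CPM in white. Their folds ran from 1.73 to 9.06, with a median log2 fold change of -1.10. AnMG0000421600 (scaffold460, 884165 to 888263, plus strand) had the smallest adjusted p of them. It was at 3.18, 3.09 and 3.35 CPM in magenta and 13.3, 9.83 and 18.4 CPM in white, a log2 difference of -2.11 ± 0.25 (SE, edgeR adjusted p 0.000568). The magenta libraries lay close together and the white ones were spread, and the call held without any 1 library. AnMG0307021200 (scaffold1274, 369013 to 369924, plus strand) also held throughout the 6 omissions, at 2.32, 0.663 and 0.698 CPM against 10.5, 7.89 and 14.7 CPM. The other 14 lost the call under at least 1 omission.

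**Figure D2:**
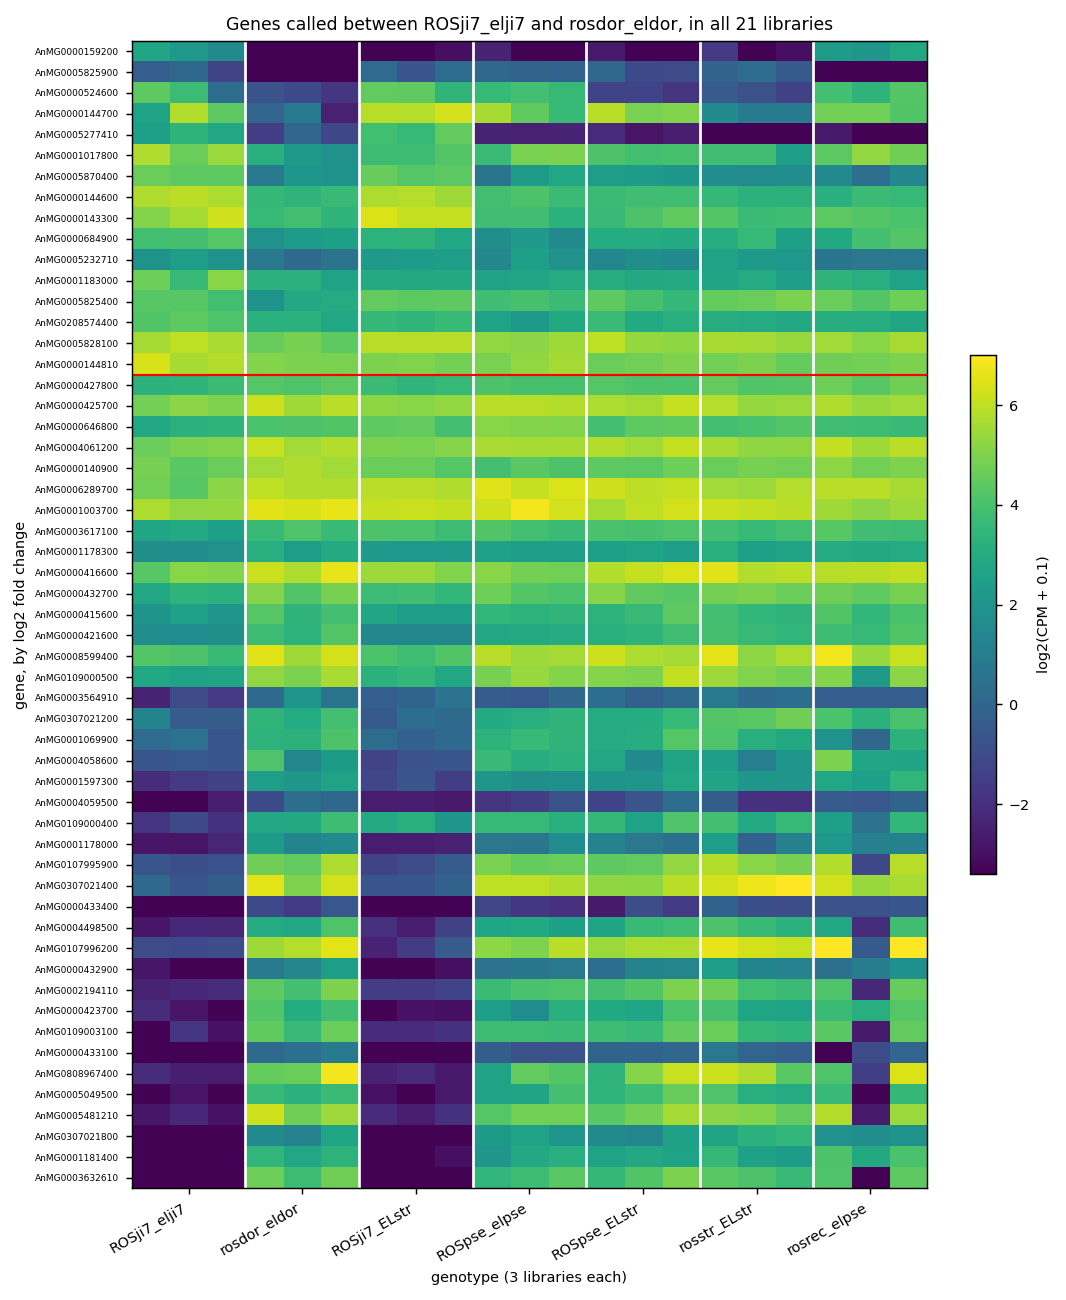
Each cell is the log2 of the level in CPM plus 0.1 of 1 called gene in 1 library, with the 55 genes ordered by log2 fold change and the 21 libraries by genotype, 3 per genotype. Below the red line, the lowest genes are dark in the 3 ROSji7_elji7 and the 3 ROSji7_ELstr libraries and lighter in most others, and rosrec_elpse replicate 2 is dark for 9 of the 22 near-off genes.

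One library of another genotype shared part of the pattern. In rosrec_elpse replicate 2, 9 of the 22 genes were under 10% of the lower of its 2 group mates, beside 185 (0.750%) of all genes tested. The 9 lay on 6 sequences. AnMG0107996200, for example, was at 0.634 CPM in that library against 211 and 300.3 CPM in its mates, AnMG0005481210 was at 0.0577 against 55.8 and 42.8 CPM, and AnMG0003632610 had no read against 17.4 and 21.3 CPM. In the same library AnMG0307021400 was at 41.7 CPM and AnMG0001181400 at 7.53 CPM. Of the 14 other libraries without a JI7 allele, rosrec_elpse replicate 1 had such a low value in 1 of the 22 genes. The other 13 had none, but the white libraries among them were high by the choice of the genes. In the libraries of the 14 that are not rosdor_eldor, such values made up 0.486% to 2.01% of all genes tested. So the low numbers do not set the 22 genes apart there.

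The called genes were placed on 25 of the 1316 sequences that hold a tested gene. On 17 of these there was a single called gene, and the other 8 held 38 between them. The sequences named next are those with the most calls apart from ros_assembly, so their shares partly describe the choice. Genes that overlap, such as AnMG0307021800 and AnMG0307021400, are each counted. Of the 89 tested genes of scaffold460, 10 (11.2%) were called, all lower, beside 0.158% lower of all genes tested. The median log2 fold change of its tested genes was -0.32. Scaffold272 had 4 of 19 (21.1%), scaffold217 5 of 91 (5.5%) and scaffold1274 4 of 64 (6.25%), all lower. On scaffold1155 3 of 61 (4.92%) were called, all higher, and on scaffold1195 4 of 118 (3.39%), of which 3 were higher.

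Some of these were unbroken runs of tested neighbours, taking called genes at most 100 kb apart as a run, a distance chosen after the data were seen. On scaffold1274 the 3 tested genes between 362802 and 369924 were all lower. AnMG0307021800, which lies inside AnMG0307021400 on the same strand, had no read in magenta and 2.91, 2.19 and 6.67 CPM in white, at least 114-fold lower. On scaffold460 all 4 tested genes from 479459 to 492256 were lower. AnMG0000433400 and AnMG0000433100 had no read in magenta, at least 10.4-fold and 37.1-fold lower. AnMG0000433400 was low in white too, at 0.38, 0.22 and 0.57 CPM from 30 reads. Its means were 0.231 to 0.548 CPM in the 4 further genotypes. AnMG0000433100 was at 1.0, 1.2 and 1.7 CPM in white. AnMG0000432900 had reads in 1 magenta library, and white exceeded magenta by a ratio of 286 (95% counting interval from 51.0). The longer AnMG0000432700 beside them was at 6.95, 10.3 and 9.32 CPM in magenta against 34.4, 18.2 and 29.4 CPM in white, so that the step down there was partial. The calls of AnMG0307021800 and AnMG0000432900 held without any 1 library. Those of AnMG0000433400 and AnMG0000433100 ended without magenta replicate 1 or 3 or white replicate 3, and that of AnMG0000432700 without magenta replicate 1 or white replicate 3.

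In wider runs the called genes were interleaved with genes that were not called. On scaffold272, AnMG0004058000 and AnMG0004057600 lay among 4 called genes over 164 kb and had log2 fold changes of -0.08 and 0.30. On scaffold460, 17 of the 21 tested genes between 695262 and 888263 were not called, with log2 fold changes of -2.82 to 0.67. Of the 17, AnMG0000422000 (-2.82), AnMG0000421700 (-2.82) and AnMG0000427200 (-1.45) were called lower in ROSji7_ELstr against rosstr_ELstr, at -6.47, -4.10 and -1.74 on the log2 scale (edgeR adjusted p 0.0122, 0.0245 and 0.0245). In the same stretch AnMG0000423700 (767047 to 784610) stood at 0.136, 0.0368 and 0 CPM in magenta and 18.5, 8.21 and 13.8 CPM in white (edgeR adjusted p 0.000155), a call that held without any 1 library.

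Complete absence was rare in either direction among all 37234 gene IDs, and its counts depended on single libraries. In 7 genes there was no read in the 3 magenta libraries and at least 1 CPM in each white library, and 4 of them were called, AnMG0003632610, AnMG0001181400, AnMG0307021800 and AnMG0000433100. The other 3 missed the threshold. AnMG0004508700 (scaffold16) was at 3.67, 3.98 and 7.44 CPM in white, at least 145-fold lower in magenta, with an adjusted p of 0.0542. AnMG0308189310 (scaffold388) was at least 40.6-fold lower (adjusted p 0.0643) and AnMG0000393700 (scaffold524) at least 77.4-fold lower (adjusted p 0.153). In ROSji7_ELstr, 3 of the 7 had no read and the rest 3 reads or fewer. The count of 7 was 11 without magenta replicate 1 and 12 without replicate 2. In the reverse direction 1 gene qualified, AnMG0000159200, and the count was 15 without white replicate 2, 7 without magenta replicate 1 and 2 to 4 under the other omissions.

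The 16 genes higher in magenta took several shapes across the genotypes. AnMG0000144600 (sequence C8910231, 1415 to 4296, minus strand) was the steadiest. It was at 54.6, 60.2 and 52.3 CPM in magenta and 11.4, 10.3 and 12.6 CPM in white, a log2 difference of 2.28 ± 0.16 (SE, edgeR adjusted p 6.92e-07). It was at 52.0 ± 6.46 CPM (SD, n = 3) in ROSji7_ELstr and 10.2 to 14.6 CPM in the 4 genotypes without a JI7 allele apart from white, among them the magenta ROSpse_elpse at 14.6 CPM. It was called in all 12 alternatives, with an adjusted p of at most 0.0134. It is the sole tested gene of its short sequence, so nothing can be said of its neighbours.

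AnMG0000144700 (ros_assembly, 541660 to 544383, plus strand) had another shape. It was at 6.13, 55.4 and 21.2 CPM in magenta and 0.885, 1.72 and 0.0848 CPM in white. The magenta libraries spanned a wide range and all lay above the white ones, with a log2 difference of 4.95 ± 0.86 (SE, edgeR adjusted p 0.0201). The call ended without white replicate 1 or 3, at up to 0.0745, and in the fit of the 6 libraries alone the adjusted p was 0.769. Its mean was 24.6 to 64.7 CPM in ROSji7_ELstr, ROSpse_elpse, ROSpse_ELstr and rosrec_elpse and 2.08 CPM in the white rosstr_ELstr.

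AnMG0000524600 (scaffold1047, 110939 to 123645, minus strand) was at 21.2, 13.2 and 1.12 CPM in magenta and 0.506, 0.382 and 0.198 CPM in white, a log2 difference of 5.14 (edgeR adjusted p 0.00910, and 0.0694 without white replicate 3). One magenta library lay close to the white ones. Its means were 18.3 CPM in ROSji7_ELstr, 12.7 in ROSpse_elpse and 14.3 in rosrec_elpse, against 0.264 in ROSpse_ELstr and 0.469 in rosstr_ELstr. It overlaps 2 genes on the same strand and its placement had 97.68% identity, the lowest of the called genes.

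AnMG0000159200 (scaffold1195, 273970 to 274999, minus strand) was at 6.68, 4.64 and 2.90 CPM in magenta and had no read in white, at least 114-fold higher (edgeR adjusted p 0.00995, and 0.0676 without white replicate 3). Outside magenta ROSji7_elji7 it stood at 5.39 CPM in rosrec_elpse and at no more than 0.0785 CPM in the others, ROSji7_ELstr among them. Further along scaffold1195, AnMG0001017800 (1042617 to 1046548, minus strand) was at 53.8, 24.2 and 43.5 CPM in magenta and 8.60, 4.42 and 3.51 CPM in white, a log2 difference of 2.92 (adjusted p 0.00995, and 0.0727 without white replicate 3).

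In several higher genes it was the white level that was unlike the other genotypes. On scaffold1155, AnMG0005825400 was at 19.3, 19.6 and 14.4 CPM in magenta and 3.80, 7.16 and 8.00 CPM in white, and at 14.0 to 26.1 CPM in the other 5 genotypes. AnMG0005828100 was at 54.6 CPM in magenta, 24.7 in white and 40.2 to 59.2 in the others. In AnMG0005825900 white did not stand alone, since rosrec_elpse had no read either. This gene was at 0.587 to 0.902 CPM elsewhere, and was at least 16.3-fold higher in magenta than in white. It lies within AnMG0005825700 on the same strand, which was at 173.5 CPM in magenta and 91.8 CPM in white and was not called (adjusted p 0.174). The call of AnMG0005825400 ended without magenta replicate 1 or white replicate 1, that of AnMG0005828100 without white replicate 1 or 3 and that of AnMG0005825900 without white replicate 3, at an adjusted p up to 0.105.

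In others it was the magenta level. AnMG0001183000 (scaffold1178) was at 26.0, 12.2 and 35.7 CPM in magenta and 9.61, 9.51 and 6.16 CPM in white, with 6.43 to 8.33 CPM in the other 5 genotypes. AnMG0208574400 (scaffold506) was at 18.1, 21.0 and 17.4 CPM in magenta and 9.23, 9.29 and 7.07 CPM in white, with 6.00 to 11.3 CPM in the others. The first kept its call under 1 of the 6 omissions (without magenta replicate 2) and the second under 1 (without magenta replicate 3). In AnMG0208574400 transcript T01 was at 3.21 ± 0.455 TPM in magenta and 0.800 ± 0.206 TPM in white (SD, n = 3). T02 was at 0.743 ± 0.261 and 0.308 ± 0.195 TPM, T03 at 3.27 ± 0.526 and 2.41 ± 1.15 TPM, and T04 at 6.46 ± 2.10 and 7.49 ± 0.888 TPM, and single transcripts were not tested.

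**Figure D3:**
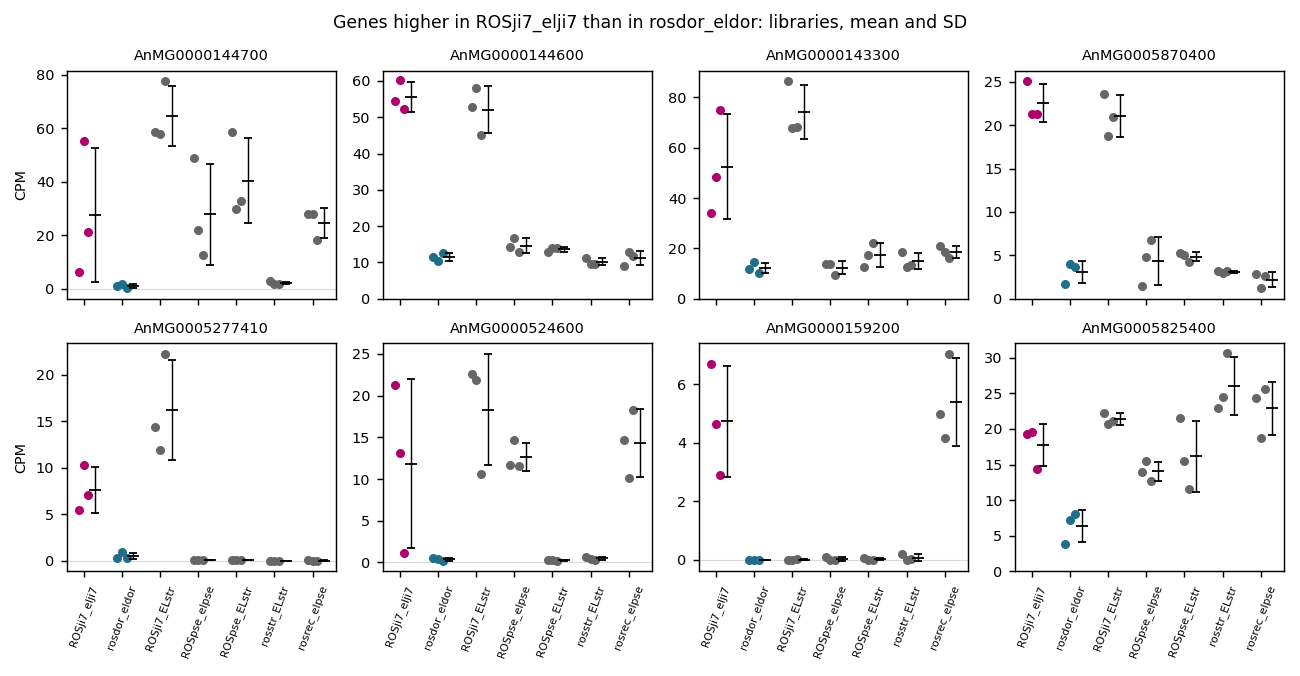
The level in CPM of 8 genes called higher in magenta is drawn for each library (points) with the mean and SD of the 3 libraries of each genotype (bars), on linear axes. AnMG0000144600, AnMG0000143300, AnMG0005870400 and AnMG0005277410 are high in both genotypes with the JI7 ROS allele, whereas AnMG0005825400 is low in white rosdor_eldor alone.

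The sequence of the assembly named ros_assembly, after the ROS locus, held 80 tested genes. Of these 6 (7.50%) were called, 5 higher and 1 lower, beside 0.223% of all genes tested. The median log2 fold change of the 80 was 0.12, with 47 above 0 and 33 below. Besides AnMG0000144700, 2 of the higher genes lay at one end, 47.6 kb apart from outer edge to outer edge. AnMG0005277410 (50042 to 51379, minus strand) was at 5.50, 10.3 and 7.05 CPM in magenta and 0.253, 0.891 and 0.339 CPM in white, a log2 difference of 3.85 ± 0.55 (SE, edgeR adjusted p 0.00790). AnMG0005870400 (96590 to 97658, minus strand) was at 25.1, 21.3 and 21.3 CPM against 1.64, 4.04 and 3.62 CPM, a log2 difference of 2.83 ± 0.44 (SE, edgeR adjusted p 0.00995). Both calls ended without white replicate 3, at an adjusted p of 0.0587. AnMG0005870400 overlaps AnMG0005870100 on the opposite strand.

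AnMG0000143300 (500322 to 501275, plus strand), the called gene next to AnMG0000144700, was at 33.9, 48.5 and 74.9 CPM in magenta and 11.9, 14.5 and 10.3 CPM in white. The log2 difference was 2.10 ± 0.28 (SE, edgeR adjusted p 0.00216), and the call held without any 1 library. Its mean was 74.2 CPM in ROSji7_ELstr and 12.3 to 18.6 CPM in the 4 further genotypes. AnMG0000144810 (876187 to 878852, minus strand) was at 81.7, 49.8 and 56.4 CPM in magenta and 33.9, 30.7 and 30.2 CPM in white, with 27.2 to 39.1 CPM in the other 5. AnMG0000140900 (378255 to 382428, plus strand) was the 1 lower gene, at 29.3, 20.0 and 24.4 CPM in magenta and 46.8, 54.3 and 47.0 CPM in white, and there it was white that stood apart, since the other 5 genotypes were at 17.3 to 32.0 CPM. The calls of AnMG0000144810 (adjusted p 0.0322) and AnMG0000140900 (0.0166) did not hold throughout. The first ended without magenta replicate 1 or any white library, at up to 0.150, and the second without white replicate 2 or 3, at up to 0.0587.

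The count of 6 was 1 without white replicate 3 and 0 in the fit of the 6 libraries alone, where edgeR called 21 genes in all. Of the 80 genes, 24 had an unadjusted p under 0.05 in the reported fit, beside 2499 (10.1%) of all genes tested, and DESeq2 called 9. Of genes known from earlier results, AnMG0000146600 (624419 to 626533, minus strand) was at 3.82, 9.76 and 4.57 CPM in magenta and 47.4, 32.5 and 9.47 CPM in white, and the difference of -2.29 ± 0.73 on the log2 scale did not pass (edgeR adjusted p 0.283). AnMG0000140810 (714682 to 716427, minus strand) was at 2.41, 7.70 and 2.97 CPM against 0.126, 1.78 and 1.72 CPM and did not pass either (adjusted p 0.301).

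**Figure D4:**
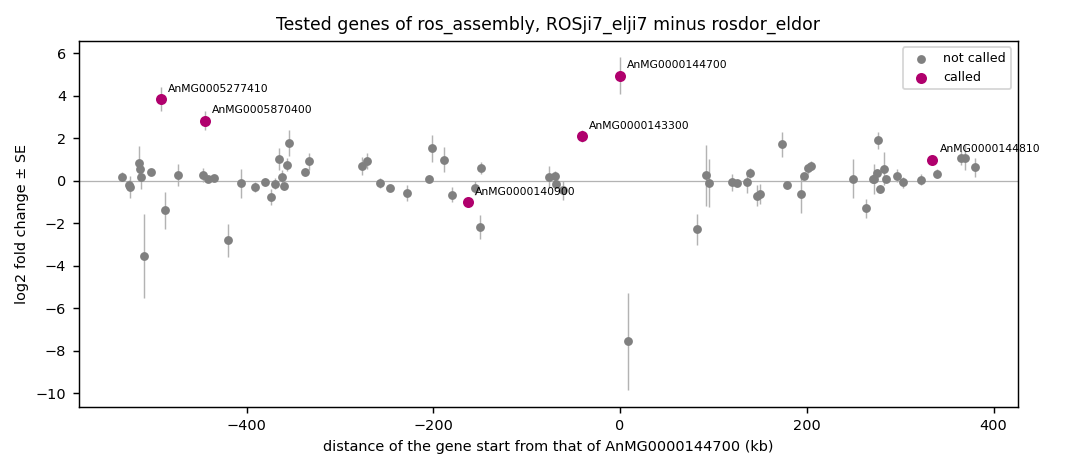
The log2 fold change of magenta minus white with its SE is drawn for the 80 tested genes of ros_assembly against the distance in kb of each gene's start from that of AnMG0000144700. The 6 called genes are in magenta; 5 lie above 0 and AnMG0000140900 below, and uncalled genes lie between them.

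The same genes were then read in libraries of other genotypes. ROSji7_ELstr and the white rosstr_ELstr both carry the dominant EL allele of *striatum* and differ by label in ROS, dominant of JI7 against recessive of *striatum*. That pair shares no library with magenta against white here, although all were fitted together with 1 estimate of spread, and white replicate 3 is of the same plant family as the rosstr_ELstr plants. The ROSji7_ELstr plants are all of family A172, which holds no other genotype, and the rosstr_ELstr plants are all of A182. Family and genotype cannot be told apart in this pair either. This pair had 291 calls (1.18%), 134 higher (0.543%) and 157 lower (0.636%). Of the 16 genes higher in magenta, 6 were also higher there, which is 37.5% of the 16 and 4.48% of the 134. Of the 39 lower genes 24 were also lower, which is 61.5% of the 39 and 15.3% of the 157, and none of the 55 was called in the opposite direction. The medians in that pair were 0.40 for the 16, -3.53 for the 39 and 0.01 for all genes.

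The 6 shared higher genes were AnMG0000144700, AnMG0000144600, AnMG0000143300, AnMG0005870400, AnMG0005277410 and AnMG0000524600, of which 4 lie on ros_assembly. Their log2 fold changes there were 4.95, 2.35, 2.31, 2.77, 11.85 and 5.27, beside 4.95, 2.28, 2.10, 2.83, 3.85 and 5.14 in magenta against white. Among the higher genes not called in that pair were AnMG0000159200, at -2.62, and the 3 of scaffold1155, at -0.29 to 0.35. The 24 fell to 10, 10 and 13 without ROSji7_ELstr replicate 1, 2 and 3 and stayed between 20 and 23 without any 1 rosstr_ELstr library. The 6 higher genes were called in each of these. The 30 genes shared in either direction were 15 without magenta replicate 1 and 13 without white replicate 3.

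**Figure D5:**
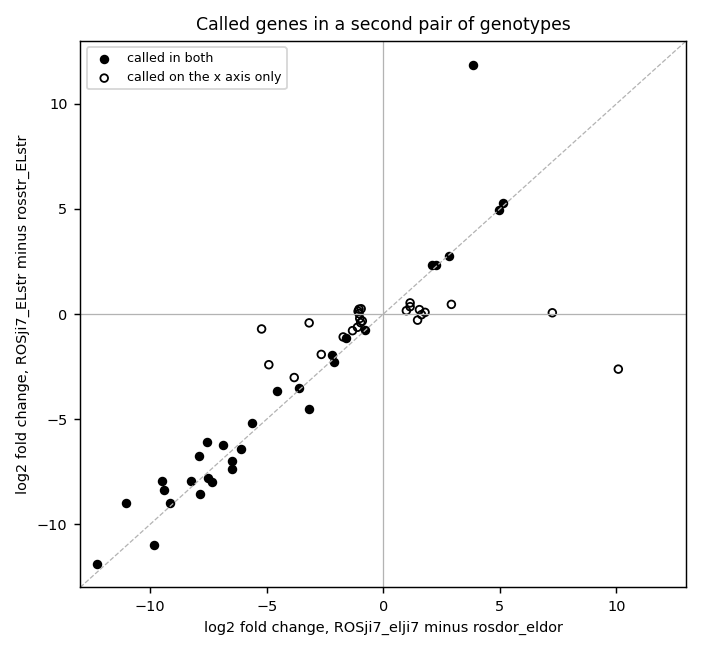
Each point is 1 of the 55 called genes, with the fitted log2 fold change of ROSji7_elji7 minus rosdor_eldor on the x axis and of ROSji7_ELstr minus rosstr_ELstr on the y axis; filled points passed in both and the dashed line marks equal values. The 30 filled points lie in the lower left and upper right, and most open points lie near 0 on the y axis.

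A second pair with no library in common set ROSji7_ELstr against ROSpse_ELstr. Both genotypes have a dominant ROS and a dominant EL allele and differ by label in the line that ROS came from. They also differ in plant family, A172 against A174, so family and genotype cannot be told apart here. This second pair was added after the data were seen, and it shares the ROSji7_ELstr libraries with the pair above. It had 150 calls (0.608%), 50 higher (0.203%) and 100 lower (0.405%). Of the 39 genes lower in magenta, 25 were lower there, which is 64.1% of the 39 and 25.0% of the 100. Of the 16 higher, 5 were higher there (31.2% of the 16 and 10.0% of the 50). These were AnMG0000144600, AnMG0000143300, AnMG0005870400, AnMG0005277410 and AnMG0000524600. The 25 fell to 9, 9 and 10 without ROSji7_ELstr replicate 1, 2 and 3. White replicate 2 is of the family of the ROSpse_ELstr plants, and the 30 genes shared in either direction were 31 without it. They were 14 and 19 without magenta replicate 1 and 3 and 13 without white replicate 3. AnMG0000144700, higher in ROSji7_ELstr than in rosstr_ELstr, was not called against ROSpse_ELstr, where its means were 64.7 and 40.4 CPM.

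Set against the 12 libraries of ROSpse_elpse, ROSpse_ELstr, rosstr_ELstr and rosrec_elpse together, all 3 ROSji7_ELstr libraries were below every one of the 12 in 211 tested genes (0.855%), 20 of the 39 lower genes among them. They were above every one in 301 (1.22%), among them 4 of the 16 higher genes, AnMG0000144600, AnMG0000143300, AnMG0005277410 and AnMG0005870400. The magenta ROSpse_elpse was also compared with the same white libraries. Since those libraries are shared, the values are only set side by side. For AnMG0000144600 the log2 fold change against white was 2.28 in ROSji7_elji7 and 0.36 in ROSpse_elpse, for AnMG0000144700 4.95 and 4.96, for AnMG0307021400 -6.49 and -0.16, and for AnMG0001181400 -11.04 (fitted) and -0.48.

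Whether the effect itself differed between ROSji7_elji7 minus rosdor_eldor and ROSji7_ELstr minus rosstr_ELstr was tested by an interaction, which called 6 genes (0.0243%) by edgeR, 2 positive (0.00811%) and 4 negative (0.0162%), with 2194 at an unadjusted p under 0.05 and 197 called by DESeq2. AnMG0005277410 was the 1 of the 55 among them. The pairs differ by label both in the EL locus and in the ros allele of the white genotype, which the interaction cannot tell apart. The count was 57 without white rosdor_eldor replicate 3, 10 without magenta replicate 1, 19 and 2 without rosstr_ELstr replicates 3 and 1, and 0 in the middle library series.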

How the data were processed

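Corolla RNA of 21 plants was sequenced, and the authors deposited for every library a table of 51926 transcripts. Its estimated counts (expected counts) are raw, and its deposited TPM values were used here only for the shares of transcripts within a gene. A deposited placement file puts transcripts on the scaffolds of assembly JICv1, per the file headers and name, and the authors' exonerate score was used only to choose 1 placement per gene. Per the submitters' processing notes, the tools included cutadapt 1.16, Salmon 0.9.1 and DESeq2, in roles that are not stated. The use of strand and the settings of Salmon are not given in the sources used here.

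Counts were added up over the transcripts of each of 37234 gene IDs and rounded. The main test was edgeR 4.0.16 (R 4.3.3, limma 3.58.1), with the quasi-likelihood F test, TMM normalisation, 1 mean per genotype and all 21 libraries, on genes that reached 0.5 CPM in 3 or more libraries, at a Benjamini-Hochberg adjusted p under 0.05. The common biological coefficient of variation was 0.400. The SE of a log2 fold change is its size divided by the square root of F. CPM uses TMM-adjusted library sizes. Folds against groups without reads take 3 counts per group as the floor, and groups with 1 to 3 counts get 95% counting intervals. Neither covers more than counting error. Fitted log2 values of these genes depend on the prior count. Coordinates are 1-based. Replicates were numbered in accession order, and no label pairs plants. The p-values rest on a spread estimated from all 21 libraries, most of them outside the comparison. The magenta plants are of 1 family and each white plant is of another. So the spread holds none between families for magenta and mixes plant and family for white.

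Named among the called genes were the 15 largest rises and 15 largest falls with at least 1 CPM in the higher group. Also named were all called genes on ros_assembly and those with another called gene within 0.5 Mb. Named whether called or not were up to 10 genes absent in 1 group and 3 known genes of ros_assembly. AnMG0001597300, AnMG0003564910 and genes named as uncalled neighbours were chosen after their values were seen. Members, lists and tests were chosen with earlier results of these data known. Pathway and tissue lists could not be matched to IDs and were not run. Alternatives tried were a DESeq2 1.42.0 test, edgeR with DESeq2 size factors, no low-count filter, the library number series as a term or its middle part alone, the 6 libraries alone, and each library left out. The library number series is read from library numbers (below 3000, middle, above 8000). Plant family could not be fitted. The procedure was tested on simulated counts of 24321 genes, with 100 genes changed 2-fold and 100 changed 4-fold. The changed genes were drawn from the better expressed ones alone, and the simulated libraries had no family structure. There edgeR recovered 33% and 85% of the changed genes and called 6 unchanged genes. DESeq2 recovered 50% and 87% and called 54 unchanged genes.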

Additional observations from a re-analysis of the deposited data

Results flagged for a closer look

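For 2 genes of ros_assembly the difference between ROSji7_elji7 and rosdor_eldor was unlike that between ROSji7_ELstr and rosstr_ELstr by the interaction test of edgeR. For AnMG0000146600 the difference of log2 fold changes was -11.69 (adjusted p 0.00269). Its level was 3.82, 9.76 and 4.57 CPM in ROSji7_elji7 and 47.4, 32.5 and 9.47 CPM in rosdor_eldor, and its mean was 15.2 CPM in ROSji7_ELstr and 0.0188 CPM in rosstr_ELstr. For AnMG0005277410 the difference was -8.01. Its level was 5.50, 10.3 and 7.05 CPM in ROSji7_elji7 and 0.253, 0.891 and 0.339 CPM in rosdor_eldor, and its mean was 16.2 CPM in ROSji7_ELstr with no read in rosstr_ELstr. So both comparisons raised AnMG0005277410 and the size differed. The size of these differences depends on the prior count, since rosstr_ELstr was at or near 0. In ROSpse_ELstr, ROSpse_elpse and rosrec_elpse the means were also low. They were 0.197, 0.0868 and 0.0548 CPM for AnMG0000146600 and 0.078, 0.090 and 0.018 CPM for AnMG0005277410. The pairs differ by label both in the EL locus and in the ros allele of the white genotype, and the test cannot tell these apart. Of 20 alternatives AnMG0000146600 passed in 19 and AnMG0005277410 in 17. In the middle library series the adjusted p was 0.128 and 0.202. That of AnMG0005277410 was also 0.0501 with the library series as a term and 0.0644 without rosstr_ELstr replicate 1.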

How the results depend on the processing

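No direction of a called gene turned in the 12 alternatives, and 5 of the 55 were called in all 12 (AnMG0000144600, AnMG0001181400, AnMG0001597300, AnMG0109000400 and AnMG0307021400). DESeq2 called 0.507% of the genes tested as higher and 0.744% as lower (306 in all), 9 on ros_assembly, 118 and 105 shared with the rosstr_ELstr and the ROSpse_ELstr pair, and 197 by the interaction; all 55 were among its calls. The fit of the 6 libraries alone called 1 higher (0.00438%) and 20 lower genes (0.0875%), 0 on ros_assembly. The middle number series gave 5 higher genes (0.0208%), 2 on ros_assembly and 0 by the interaction. Leaving out 1 library gave 0.0122% to 0.394% higher (3 to 97 genes), 0.0530% to 0.236% lower (13 to 58 genes), 1 to 6 on ros_assembly, 13 to 41 and 13 to 38 shared with the pairs, and 2 to 57 by the interaction. Of the 55, 23, 43 and 34 kept the call without magenta replicates 1, 2 and 3, and 36, 43 and 16 without the white ones. Genes without a read in magenta were 12 at a level of at least 0.5 CPM in white, 14 with up to 3 reads allowed and 7 to 12 with 1 library left out. Those without a read in white were 3 with up to 3 reads allowed and 2 to 15 with 1 library left out. The cause of these changes was not tested, beyond the fewer libraries that some of the fits hold. Omissions in the second pairs and all alternatives of the ROSpse_ELstr pair and the interaction were added after seeing the data. No paired analysis was possible because the labels give no replicate numbers. White replicate 1 has 8926585 reads, so 3 counts there are 0.336 CPM, and lower levels could not be told from absence in it.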
